A study of Mus musculus with 40 samples.

Results

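The 6 genes described here, Trim63, Trim54, Trim55, Fbxo32, Trim7 and Trim72, are ubiquitin ligases with known roles in striated muscle. They were chosen by name, and all 6 of 6 were found in both deposited gene tables, among 25462 genes in the female and 24930 in the male table. The samples were left ventricles of mice aged 10 weeks that were either wildtype or knocked out for Rbm20, the splicing regulator that sets the isoforms of titin and other heart muscle proteins. The groups were 5 wildtype females, 5 knockout females, 5 wildtype males and 5 knockout males, and the labels name no treatment, allele, strain or litter. RNA of left ventricular tissue was sequenced on a BGISEQ-500 in 2 libraries per mouse, and 39 of the 40 labelled libraries were used. A value below is the mean of the libraries of 1 mouse, in normalized counts (reads of a gene divided by a size factor of the library), and the mouse is the replicate. Mice are called as in the labels, by genotype (wt or ko), sex (f or m) and number.

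A ubiquitin ligase is the last enzyme of the chain that attaches ubiquitin to a protein, and it decides which protein is marked, often for breakdown by the proteasome. Trim63, Trim55 and Trim54 encode MuRF1, MuRF2 and MuRF3, RING-type ligases of the sarcomere that can pair with each other. MuRF1 binds titin near the M-band, and MuRF2 and MuRF3 bind microtubules. Fbxo32 encodes atrogin-1, an F-box protein that brings targets to a Skp1 and Cul1 ligase. Trim63 and Fbxo32 are the classical genes of muscle wasting, and their transcription is driven by FoxO factors and the glucocorticoid receptor and held down by insulin, IGF1 and Akt signalling. Trim7 encodes a ligase first found as a partner of glycogenin, the primer of glycogen synthesis, and Trim72 encodes MG53, a muscle protein known for the repair of torn cell membranes.

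The bases upstream of the starts of Trim63 and Trim7 are shown because Trim63 is the member with the best known regulators, whose own transcripts are described further on, and because Trim7 is the member whose difference between the sexes had the smallest p. Of the 6 members, 4 had an entry in the RefSeq promoter table (build GRCm38.p6), and each printed run is the 250 bases before a transcript start, on the plus strand. Trim63 (chr4:134314870-134315119) holds in capitals the glucocorticoid receptor palindrome (GAACA, 3 bases of any kind, TGTTC) at bases -208 to -196 from the start, the FoxO motif TGTTTAC at -194 to -188 and the TATA box TATAAATA at -31 to -24, and none of these overlap. Trim7 has an upstream run for each of its annotated starts, the first at chr11:48825888-48826137 and the second at chr11:48837221-48837470, and neither holds any of these motifs.
Trim63: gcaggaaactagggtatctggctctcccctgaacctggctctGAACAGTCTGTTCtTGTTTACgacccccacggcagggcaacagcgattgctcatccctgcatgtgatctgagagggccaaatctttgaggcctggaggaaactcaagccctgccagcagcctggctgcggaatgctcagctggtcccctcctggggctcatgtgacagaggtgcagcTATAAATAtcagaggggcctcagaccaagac
Trim7, first start: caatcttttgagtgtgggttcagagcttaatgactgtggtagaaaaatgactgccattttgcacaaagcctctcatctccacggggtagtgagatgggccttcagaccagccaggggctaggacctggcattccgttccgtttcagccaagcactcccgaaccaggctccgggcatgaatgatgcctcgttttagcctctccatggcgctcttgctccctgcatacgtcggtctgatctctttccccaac
Trim7, second start: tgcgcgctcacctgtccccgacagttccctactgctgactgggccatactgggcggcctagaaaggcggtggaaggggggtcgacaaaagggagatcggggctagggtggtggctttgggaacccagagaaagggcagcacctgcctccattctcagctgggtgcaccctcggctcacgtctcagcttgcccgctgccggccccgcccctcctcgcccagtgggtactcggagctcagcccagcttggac
Searched on both strands, the palindrome was in 13 of 32851 such runs (0.0396%), the FoxO motif in 1040 (3.17%) and the TATA box in 513 (1.56%). None of these letters was found in the runs of Trim54 and Trim72. The motifs were chosen from what is known of Trim63, after the run had been seen, and a match describes letters and not binding.

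Libraries held 2351987 to 16973229 reads in genes (median 9043245), and both extremes were libraries of the same knockout male, ko_m_127. Rbm20 RNA was measured at 404 ± 99.3 normalized counts in knockout females against 1140.1 ± 125.2 in wildtype females, and at 272 ± 35.3 against 842 ± 40.3 in males (SD, n = 5), with no overlap between the genotypes in either sex. The tissue carried heart muscle markers at a summed 391801 to 624919 normalized counts per mouse over the 4 groups, with all 8 of 8 detected, while 10 listed skeletal muscle markers summed to only 11.6 to 36.2 and none was high enough to be tested. Atrial Myl7 was at 500 normalized counts or more in 4 mice (ko_f_151, ko_f_154, wt_f_144 and wt_m_112), and results were also computed without them. The 2 tables were normalized separately, so changes are tested within a sex, and levels of one sex set beside those of the other are descriptions.

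Per kilobase of exon (union of GENCODE M21 exons), Trim72 was the most abundant of the 6 in every group and Trim7 the least. In wildtype females the levels were 834 ± 49.7 normalized counts per kb for Trim72, 586 ± 45.5 for Trim54, 393 ± 49.9 for Trim63, 258 ± 33.4 for Trim55, 140.2 ± 30.1 for Fbxo32 and 21.9 ± 3.19 for Trim7 (mean ± SD, n = 5). In wildtype males they were 796 ± 47.6, 534 ± 28.7, 327 ± 24.8, 214 ± 9.42, 121 ± 27.9 and 25.8 ± 2.1, in the same order. The order was also the same in both knockout groups, and in none of the 4 groups did the mouse values of neighbours in it overlap. The exon lengths come from an older build than the GRCm39 annotation of the files and cover all annotated exons of a gene. The middle of the order depends on these lengths. In normalized counts without length, wildtype females had 841 for Trim54, below Trim63 (1116) and Fbxo32 (978). Fbxo32 varied most between mice of the same wildtype group, with a coefficient of variation of 21.5% in females and 23.1% in males. Trim54 varied by 7.76% and 5.37%.

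**Figure D1:**
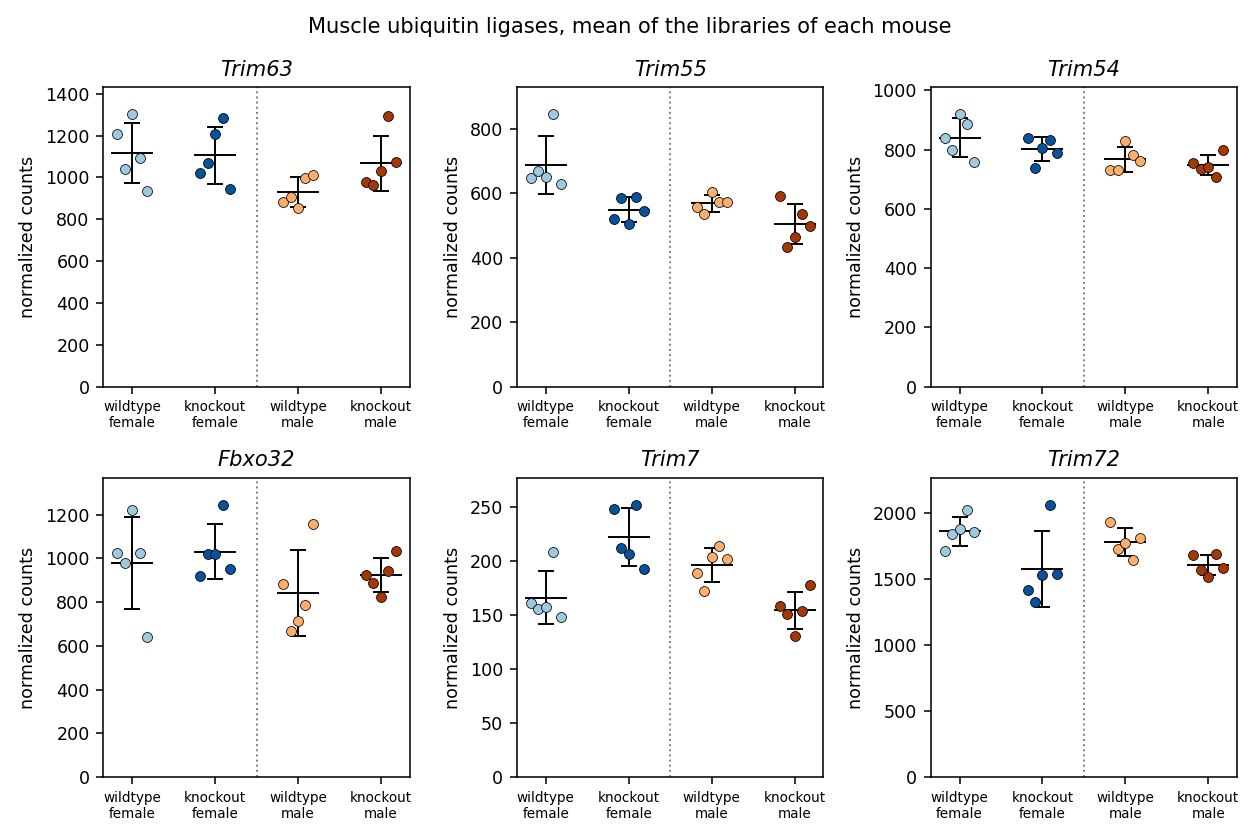
Normalized counts (vertical axes, from 0) of the 6 ligases in each of 20 mice, by genotype and sex. Points are mice (mean of their libraries), the long dash is the group mean and bars are the SD (n = 5). The dotted line parts the sexes, whose tables were normalized separately. Trim7 lies at 192 to 252 in knockout and 148 to 209 in wildtype females, and at 130.4 to 178 in knockout and 172 to 214 in wildtype males.

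Between knockout and wildtype hearts, the ligases of the wasting program, Trim63 and Fbxo32, passed the test in neither sex, and Trim54 and Trim72 did not either. Trim55 fell in females, and Trim7 rose in females and fell in males. Thus 2 of 6 members passed an adjusted p of 0.05 in females, where 10.8% of the 12781 genes tested did (5.28% higher and 5.51% lower), and 1 of 6 passed in males, where 15.9% of 12506 did (7.6% higher and 8.29% lower). The test was limma on log2(normalized count + 1) over mice, and all 6 members passed its filter of a mean of at least 10. The members' median log2 change was -0.041 in females and -0.090 in males, beside 0.0014 and -0.0012 for all genes tested. All of these are bulk measurements, in which fewer cells of a type and less RNA per cell cannot be told apart.

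**Figure D2:**
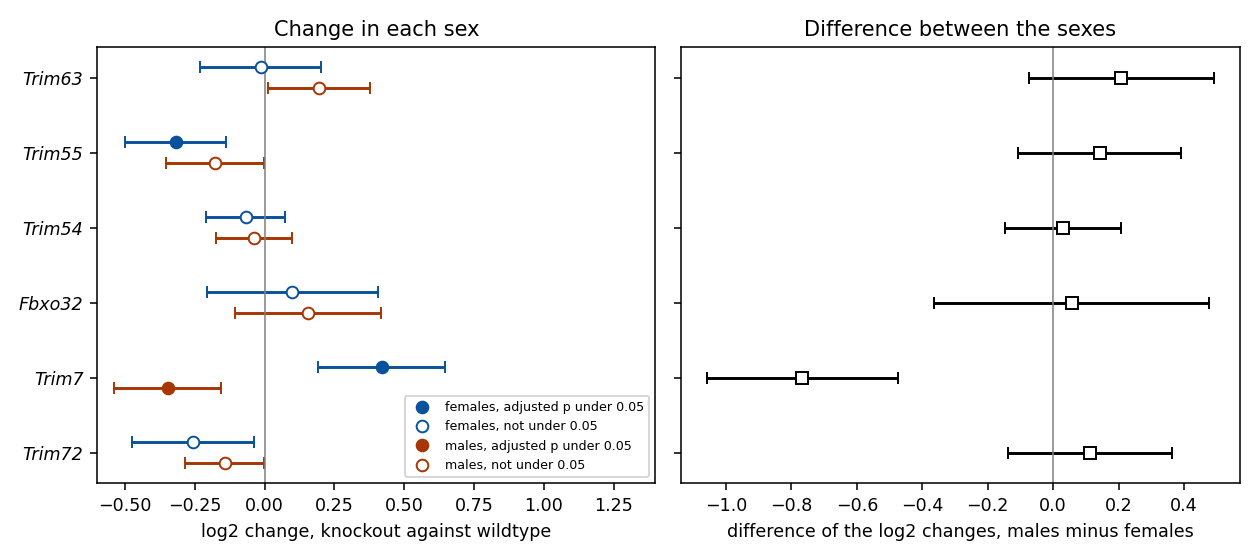
Left: log2 change of knockout against wildtype (horizontal axis) for each ligase in females (blue) and males (brown), with 95% confidence intervals from limma, n = 5 mice a group, filled where the adjusted p is under 0.05. Right: difference of these changes, males minus females, with 95% intervals. Trim7 stands at 0.42 in females and -0.35 in males, and its interval for the difference, -1.06 to -0.48, is the only one of the 6 that does not span 0.

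Trim7 (chr11:48716967-48743036, plus strand, GRCm39), the glycogenin partner, had values of 161, 155.2, 158, 209 and 148 normalized counts in wt_f_140, wt_f_141, wt_f_142, wt_f_143 and wt_f_144. In ko_f_95, ko_f_150, ko_f_151, ko_f_154 and ko_f_155 the values were 192, 248, 212, 207 and 252. All 5 knockout females stood above the wildtype median, 3 of them above every wildtype female, and the groups overlapped through wt_f_143. The log2 change was 0.42 ± 0.11 (SE; 95% interval 0.19 to 0.65, adjusted p = 0.022), a 1.34-fold rise. In males the direction was the opposite. The wildtype males wt_m_112, wt_m_113, wt_m_124, wt_m_125 and wt_m_139 had 189, 172, 203, 214 and 202 normalized counts of Trim7, and the knockout males ko_m_97, ko_m_106, ko_m_127, ko_m_128 and ko_m_130 had 178, 158, 150.9, 130.4 and 153.6. Mouse ko_m_97 alone reached into the wildtype range, and the other 4 knockout males were below every wildtype male. The log2 change in males was -0.35 ± 0.090 (95% interval -0.54 to -0.15, adjusted p = 0.0159), or 0.786 of the wildtype level. Trim7 had the largest gap of the 6 between the 2 libraries of a mouse, a median of 0.13 and at most 0.35 on the log2 scale over 19 mice.

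The rise of Trim7 in females was close to the threshold. Its log2 change stayed between 0.37 and 0.50 when each mouse was left out in turn, but the call was lost without wt_f_140 (log2 0.41, adjusted p = 0.0533), wt_f_141 (0.40, 0.0605) or wt_f_142 (0.40, 0.0515). It was also lost without the mice with high Myl7 (0.43, adjusted p = 0.0596) and with library 2 of each mouse alone (0.31, adjusted p = 0.15), a fit that drops ko_f_154. In males Trim7 passed the threshold in each fit that left out 1 mouse (log2 -0.40 to -0.29, adjusted p 0.00877 to 0.0438). It also passed in every other alternative run over mice (adjusted p 0.00411 to 0.0355). The authors' values, in which each library counts as a sample, gave an adjusted p of 8.39e-06 from DESeq2.

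**Figure D3:**
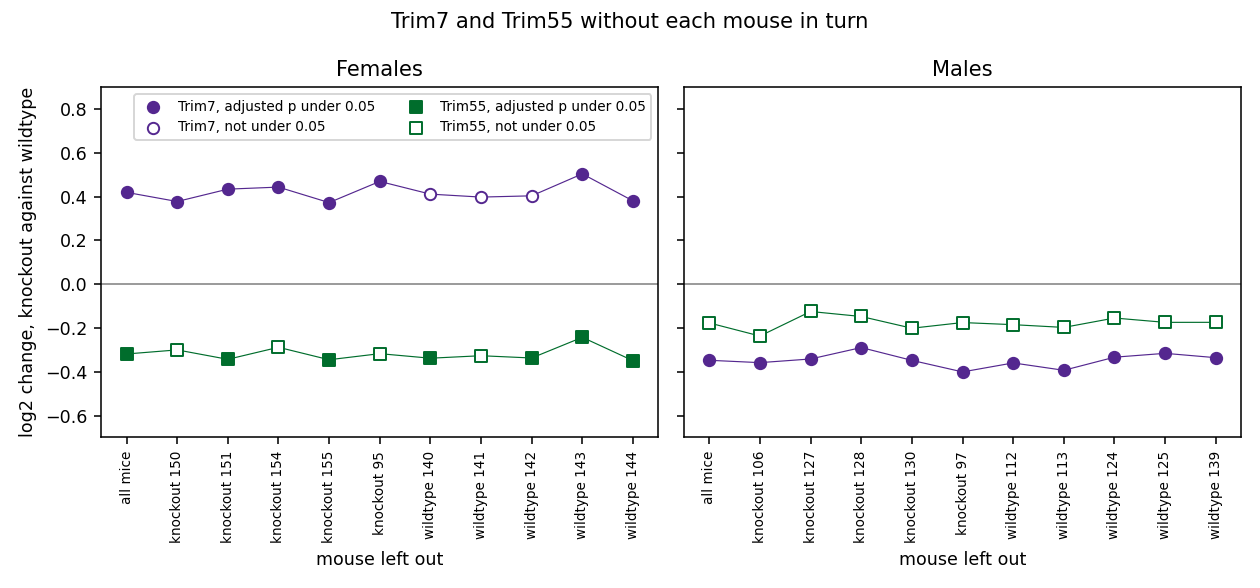
Log2 change of knockout against wildtype (vertical axis) for Trim7 (circles) and Trim55 (squares) with all mice and with each mouse left out in turn (horizontal axis), females left and males right. Filled symbols have an adjusted p under 0.05 in limma. Trim7 keeps its sign in every fit, above 0 in females and below 0 in males, and Trim55 lies below 0 throughout.

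The difference between the sexes in the change of Trim7 was -0.77 ± 0.14 on the log2 scale, males minus females (95% interval -1.06 to -0.48, unadjusted p = 1.82e-05). By that p Trim7 ranked 2 of 12651 genes, but its adjusted p was 0.0789, a value that 5 genes shared as the smallest. No gene (0%) passed an adjusted p of 0.05 for this difference in limma, while 1031 genes (8.15%) had an unadjusted p under 0.05. On whole reads recovered from the tables, edgeR also called 0 genes (Trim7 adjusted p = 0.063), and DESeq2 called 49 of 12646 (0.387%), with Trim7 among them (log2 -0.76, adjusted p = 0.00208). In limma Trim7 passed without ko_f_95 (0.0313), wt_f_143 (0.00864) or ko_m_97 (0.0185), and in the other 17 fits that left out 1 mouse it did not; over the other alternatives its adjusted p was 0.00208 to 0.203. The other 5 members had differences of 0.031 ± 0.085 (Trim54) to 0.21 ± 0.14 (Trim63), with adjusted p from 0.777 to 0.976.

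Trim55 (chr3:19698638-19746585, plus strand, GRCm39), which encodes MuRF2, had 648, 668, 649, 844 and 628 normalized counts in wildtype females (mice in the order above). Knockout females had 545, 520.0, 586, 503 and 589. Every knockout female was below every wildtype female, as for 9.14% of the genes tested in either direction, and wt_f_143 was far above the other 4 wildtypes. The log2 change in females was -0.32 ± 0.084 (95% interval -0.50 to -0.14, adjusted p = 0.0281), or 0.802 of the wildtype level. In males Trim55 was at 556, 536, 604, 572 and 572 in wildtypes and 499.5, 593, 434, 463 and 537 in knockouts. Of the 5 knockout males, 3 were below the lowest wildtype, and the groups overlapped. The log2 value in males was -0.18 ± 0.083 (95% interval -0.35 to -0.00055), with an adjusted p of 0.171 that missed the threshold.

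The fall of Trim55 in females kept its size but not its call in several alternatives. It was -0.30 (adjusted p = 0.0588) without ko_f_150, -0.29 (0.0677) without ko_f_154, -0.32 (0.0573) without ko_f_95 and -0.33 (0.0577) without wt_f_141. Without the mice with high Myl7 it was -0.34 (adjusted p = 0.0573). Without wt_f_143, the highest, the fall was -0.24 and passed (adjusted p = 0.0419).

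Trim63 (chr4:134042431-134056940, plus strand, GRCm39), which encodes MuRF1, had 1207, 1041, 1301, 1093 and 937 normalized counts in wildtype females and 947, 1023, 1067, 1207 and 1282 in knockout females. The ranges lay on top of each other, and the log2 value was -0.013 ± 0.10 (95% interval -0.23 to 0.20, adjusted p = 0.956). Wildtype males had 880.3, 908, 852, 997 and 1009, and knockout males had 1072, 978, 964, 1031 and 1292. All 5 knockout males were above the wildtype median and 3 were above every wildtype male. The log2 value in males was 0.19 ± 0.086 (95% interval 0.011 to 0.38), and its adjusted p of 0.147 missed the threshold.

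Trim54 (chr5:31274056-31294974, plus strand, GRCm39), which encodes MuRF3, spanned 757 to 919 normalized counts in wildtype and 739 to 838 in knockout females, and 730.3 to 830.3 in wildtype and 707 to 800.0 in knockout males. Its log2 values were -0.068 ± 0.065 in females (95% interval -0.21 to 0.073, adjusted p = 0.568) and -0.036 ± 0.064 in males (-0.17 to 0.10, 0.762), and the mouse values of the genotypes overlapped in both sexes. Both intervals lie within -0.21 to 0.10.

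Fbxo32 (chr15:58039275-58078328, minus strand, GRCm39), which encodes atrogin-1, had 1023, 979, 1221, 1026 and 641 normalized counts in wildtype females and 953, 918, 1021, 1020.3 and 1244 in knockout females. Mouse wt_f_144 was the lowest of the 10 and ko_f_155 the highest. In males it had 881, 669, 713, 787 and 1159 in wildtypes and 1035, 923, 888, 823 and 941 in knockouts. All 5 knockout males were above the wildtype median, but wt_m_139 was above all of them. The log2 values were 0.099 ± 0.14 in females (95% interval -0.21 to 0.41, adjusted p = 0.72) and 0.16 ± 0.12 in males (-0.11 to 0.42, 0.445). The spread between wildtype mice gave Fbxo32 the widest intervals of the 6.

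Trim72 (chr7:127603121-127610205, plus strand, GRCm39), which encodes MG53, had 1710.0, 1844, 1879, 2022 and 1854 normalized counts in wildtype females and 1539.5, 1419.9, 1328, 1532 and 2059.8 in knockout females. Of the 5 knockout females, 4 were below every wildtype female, and ko_f_155 was above them all. The log2 value was -0.26 ± 0.10 (95% interval -0.47 to -0.038) and its adjusted p of 0.128 missed the threshold. Without ko_f_155 it was -0.36 and passed (adjusted p = 0.00772). In males Trim72 had 1933, 1725, 1773, 1646 and 1808 in wildtypes and 1579.9, 1679.5, 1571, 1517 and 1693 in knockouts. All 5 knockout males were below the wildtype median and 3 were below every wildtype male. The log2 value in males was -0.14 ± 0.067 (95% interval -0.29 to -0.0011), and its adjusted p of 0.169 missed the threshold.

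Markers of other cell types moved with genotype beside these results. Of 10 fibroblast markers, 4 rose in females and 5 in males, and their summed level was 41056 to 55036 normalized counts in knockout and 32030.0 to 40735 in wildtype females, and 32842 to 43740.3 and 21882 to 36063 in males. Of 10 endothelial markers, 2 fell in each sex, with sums of 10224 to 12778 in knockout and 14002 to 16326 in wildtype males and 14147 to 16135 and 15082 to 16824 in females. None of the 20 genes of these lists was at 0 in a group. Of 6 fat cell markers tested in females, 4 rose, with sums of 385 to 2038 in knockouts and 189.6 to 401 in wildtypes, ko_f_151 highest and Ucp1 at 0 in the knockouts. In males 0 of the 2 tested passed, with sums of 183 to 279 in wildtypes and 154.05 to 297 in knockouts and Ucp1 not listed.

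The summed level of 9 atrial markers, which include the stress gene Nppa, was 2206 to 29582 in knockout and 435 to 5127 in wildtype females and 2767 to 8753 and 450.0 to 3271 in males, with Bmp10 not listed in the female table and at 0 in the knockout males. Of 7 atrial markers tested, Nppa rose in both sexes (4236 ± 2315 against 402 ± 193 normalized counts in females and 5558 ± 2338 against 265 ± 174 in males, knockout against wildtype). It was the only one called in females, where 6 of the 7 log2 values were positive. In males Myl7 (0.769 ± 0.521 against 177 ± 292) and Tbx5 (112.5 ± 7.52 against 153.8 ± 15.4) fell (adjusted p = 0.0167 and 0.00266), and 1 of the 7 log2 values, that of Nppa, was positive. The wildtype mean of Myl7 in males includes wt_m_112, at 692 normalized counts. Of 7 mural (pericyte and smooth muscle) markers tested, Abcc9 fell in each sex. The mural sums were 6988 to 7977 in knockout and 8015 to 9678 in wildtype males, which did not overlap. They were 7805 to 10693 and 10500.5 to 12161 in females. Of single genes tested in males, 12.7% of 12506 did not overlap between the genotypes, in either direction. Of 4 red blood cell markers tested, 2 (Hbb-bt and Alas2) fell in males and 0 passed in females in limma, where 0 had an unadjusted p under 0.05. The red blood cell sums were 11403 to 22309 in knockout and 17119.9 to 39989 in wildtype males and 7742 to 20076 and 10369.8 to 35463 in females. Of 10 macrophage markers, Cx3cr1 rose in males (95.2 ± 42.2 against 44.1 ± 15.9, adjusted p = 0.0204), where 3 of the 10 log2 values were positive. None passed in females, where the 1 with an unadjusted p under 0.05 was Cx3cr1. There it was lower in knockouts (44.2 ± 11.4 against 64.5 ± 14.8, log2 -0.55 ± 0.21, adjusted p = 0.12). None of the 8 heart muscle markers passed in either sex. The part of these shifts in the values of the ligases was not tested.

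Of 40 genes known to regulate these ligases in muscle, 36 were tested in females, where 3 rose and 4 fell, and 34 in males, where 2 rose and 4 fell. The list's median log2 change was 0.0019 in females and 0.0075 in males. Beside this list, the marker lists above and the lists below, 10.8% of all genes tested passed in females and 15.9% in males. The median log2 change of all genes tested was 0.0014 in females and -0.0012 in males. Akt1, a kinase that holds FoxO factors out of the nucleus, fell by 0.45 in females and 0.41 in males on the log2 scale (adjusted p = 0.00155 and 0.00419). Akt2 fell by 0.34 and 0.21 (0.00223 and 0.0467), and its male call was kept in 1 of 10 fits that left out a mouse. Tnfrsf12a, the TWEAK receptor Fn14, rose from 387 ± 138 to 709 ± 89.1 normalized counts in females and from 273 ± 11.1 to 846 ± 118 in males (log2 0.93 ± 0.18 and 1.62 ± 0.088).

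The transcription factors named for the motifs upstream of Trim63 gave the following values. Foxo3 had 449.7 ± 35.6 against 575 ± 55.9 normalized counts in knockout against wildtype males and fell (log2 -0.35 ± 0.082, adjusted p = 0.00826). In females it had 695 ± 96.1 against 842 ± 203 and did not pass (log2 -0.25 ± 0.16, adjusted p = 0.344). The low-level Foxo6 fell in males (10.1 ± 2.68 against 22.9 ± 3.69, log2 -1.13 ± 0.21, adjusted p = 0.00159). Foxo1 had log2 values of 0.20 ± 0.11 in females and -0.011 ± 0.092 in males (adjusted p = 0.268 and 0.957). Foxo4 passed in neither sex, with 457 ± 24.6 against 417 ± 59.3 normalized counts in females (log2 0.14 ± 0.094, adjusted p = 0.381). Nr3c1, the glucocorticoid receptor, had 0.022 ± 0.069 and 0.21 ± 0.069 (0.884 and 0.0507), and Klf15, its target and partner at the Trim63 promoter, 0.14 ± 0.19 and -0.0061 ± 0.088 (0.716 and 0.976).

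The other regulators that passed in females were Srf (log2 -0.31 ± 0.078) and Smad3 (-0.28 ± 0.078), which fell, and Cebpd (0.74 ± 0.19) and the activin subunit gene Inhba (1.14 ± 0.32), which rose. In males Cebpb rose (0.88 ± 0.25), while in females its log2 value was 0.85 ± 0.30 and did not pass (adjusted p = 0.0946). These 5 calls were near the threshold (adjusted p from 0.0221 to 0.0359), and each was lost in 2 to 7 of the 10 fits that left out a mouse.

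Of 21 other genes known as FoxO or wasting targets, 20 were tested in each sex. In females 0 passed in limma (adjusted p), and in males 2 rose and 3 fell, beside list medians of 0.063 and 0.032 on the log2 scale. In males Mt1 (metallothionein 1) fell from 1589.6 ± 384 to 768 ± 160.1 normalized counts (log2 -1.05 ± 0.17, adjusted p = 0.000618). The growth arrest gene Gadd45a fell by 0.73 and the autophagy kinase gene Ulk1 by 0.45 (adjusted p = 0.00398 and 0.00102). Sesn3 (a sestrin, 0.36 ± 0.11) and Nfe2l1 (a factor that raises proteasome genes, 0.29 ± 0.092) rose, with adjusted p of 0.0361 and 0.0456 that were kept in 3 and 2 of 10 fits that left out a mouse. The genes called in males had log2 values of the same sign in females. These were -0.28 for Mt1, -0.32 for Gadd45a, -0.36 for Ulk1, 0.34 for Sesn3 and 0.21 for Nfe2l1 (adjusted p = 0.0639, 0.165, 0.0571, 0.0729 and 0.121). The female count at an unadjusted p under 0.05 was 8 of 20, and edgeR called 1, which was lower. For the difference between the sexes 0 of the 20 passed in limma.

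Among 37 other ubiquitin ligases and ligase adaptors of muscle, 5 rose and 1 fell in females, of 37 tested, and 5 rose and 4 fell in males, of 36 tested, beside list medians of -0.038 and -0.028 on the log2 scale. Klhl40, which with Cul3 acts on thin filament proteins, rose from 159 ± 15.2 to 279 ± 38.5 normalized counts in females (log2 0.80 ± 0.10, adjusted p = 0.000378) and had 295 ± 53.8 against 162 ± 18.7 in males (log2 0.85 ± 0.12, 0.000242). Its relative Klhl41 rose by 0.37 ± 0.078 in females and 0.75 ± 0.098 in males. Ube4b, a U-box ligase that lengthens ubiquitin chains, rose by 0.69 ± 0.098 and 0.86 ± 0.10, and the RING ligase Rnf115 by 0.61 ± 0.070 and 0.72 ± 0.091. These 4 genes passed in both sexes and in all 10 fits of each sex that left out a mouse.

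Fbxl22, an F-box protein known from the Z-disc of heart muscle, fell from 608 ± 35.8 to 349 ± 38.4 normalized counts in females (log2 -0.80 ± 0.080, adjusted p = 7.93e-05). In males it fell by 0.48 (0.0296), a call kept in 4 of 10 fits that left out a mouse. Fbxo40, a muscle F-box protein, rose in males (log2 0.61 ± 0.089, adjusted p = 0.000277). The male falls of Fbxo21 (-0.36 ± 0.084), Mul1 (-0.24 ± 0.068) and Asb11 (-0.25 ± 0.077) had adjusted p of 0.00818, 0.024 and 0.0423, kept in 10, 6 and 3 of 10 fits that left out a mouse. For none of the 37 did the difference between the sexes pass in limma.

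**Figure D4:**
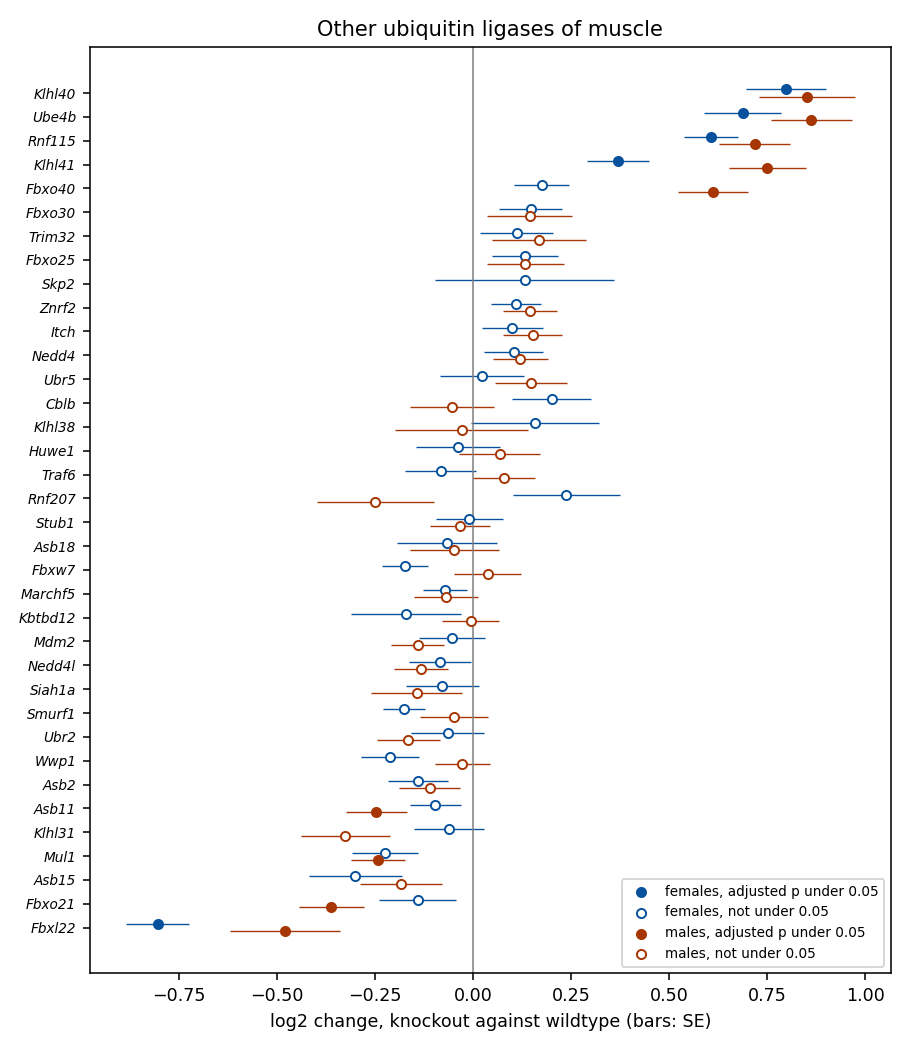
Log2 change of knockout against wildtype (horizontal axis, bars SE) for 36 of the 37 other ubiquitin ligases of muscle, females in blue and males in brown, n = 5 mice a group, filled where the adjusted p is under 0.05 in limma. Klhl40, Ube4b, Rnf115 and Klhl41 lie at the top with filled points in both sexes, and Fbxl22 lies at the bottom.

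Of 26 partners of the ligases and genes of ubiquitin conjugation and removal (Skp1, Cul1, Cul3, ubiquitin genes, conjugating enzymes and deubiquitinases), 25 were tested, and 0 passed in females in limma and 2 fell in males. The median log2 change was 0.010 in females and -0.030 in males. Usp2, a deubiquitinase, fell from 829 ± 32.9 to 604 ± 79.1 normalized counts in males (log2 -0.47 ± 0.084, adjusted p = 0.00151). Ube2d1, a conjugating enzyme, fell by 0.26 (0.0456), a call kept in 2 of 10 fits that left out a mouse. In females 5 of the 25 had an unadjusted p under 0.05, and edgeR called 0.

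Of 35 known substrates and binding partners, 34 were tested, and 5 rose and 2 fell in females and 6 rose and 5 fell in males, beside median log2 changes of 0.015 and -0.021. Myot (myotilin of the Z-disc) rose by 1.67 ± 0.14 in females and 1.43 ± 0.14 in males, Myh7 (slow myosin) by 1.65 ± 0.26 and 2.50 ± 0.23, and Anxa5 (annexin A5) by 0.55 ± 0.094 and 0.53 ± 0.073. Ckm (muscle creatine kinase) fell by 0.38 and 0.39 and Pdk2 (pyruvate dehydrogenase kinase) by 0.35 and 0.39. These 5 passed in both sexes (adjusted p at most 0.0282), and Ckm in males and Pdk2 in females did not pass in every fit that left out a mouse.

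In females Tcap (telethonin, log2 0.92 ± 0.23) and Jun (0.38 ± 0.10) also rose (adjusted p = 0.0199 and 0.0274). In males Sqstm1 (the p62 receptor that binds MuRF2, 0.31 ± 0.087) and Mybpc3 (myosin binding protein C, 0.34 ± 0.10) rose, and Cav1 (-0.48 ± 0.075) and the dehydrogenase kinase gene Pdk4 (-1.61 ± 0.36) fell. The glycogen genes beside Trim7 gave log2 values for Gyg (glycogenin) of 0.15 ± 0.072 in females (adjusted p = 0.225) and 0.28 ± 0.078 in males, where it rose (0.0251). Gys1 (glycogen synthase) fell in males from 771 ± 40.6 to 564 ± 62.1 normalized counts (log2 -0.46 ± 0.080, adjusted p = 0.00117) and had a log2 value of -0.29 ± 0.10 in females (0.0914). Tcap, Jun, Sqstm1, Mybpc3 and Gyg did not pass in every fit that left out a mouse. Over the 5 lists, 13 of the 20 genes called in females and 21 of the 33 called in males were called in every fit that left out 1 mouse, and 15 and 27 without the mice with high Myl7.

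Genes that followed each member from mouse to mouse were named by the lower of their 2 Pearson correlations over the 10 mice of each table (both genotypes, log2 scale), among 9130 genes. Fbxo32 was most like Klf15 (0.82), Klhl38 (0.78) and Fam214a (0.76). Klf15 and Klhl38 also belong to the lists of regulators and other ligases. Trim63 was most like Polr2b (0.71), Dcaf13 (0.69) and Pik3ip1 (0.68), Trim54 like Trak1 (0.76), Lmo7 (0.76) and Rab22a (0.76) and Trim55 like Pfkl (0.82), Supv3l1 (0.81) and Lrpprc (0.81). Trim7 was most like Xab2 (0.78) and Recql5 (0.73), and Trim72 like Hsd17b4 (0.83), Cox10 (0.79) and Opa3 (0.79). The correlations in parentheses are the highest among those genes and share the size factors and genotypes of the mice, so they are descriptions.

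The deposited exon tables list bins (parts of exons) whose use relative to their gene had an unadjusted p under 0.05. They hold 8 bins of the 6 members in females and 11 in males, and none of these passed the authors' adjusted p of 0.05, where 6.09% of 13674 listed bins with an adjusted p did in females and 11.6% of 18646 in males. The smallest values in the authors' deposited table were 0.225 for bin 11 of Trim55 in females and 0.0795 for bin 9 of Fbxo32 in males. Bin 11 of Trim55 held 6.11 ± 0.723 against 8.07 ± 1.51 reads per 100 reads of the gene in knockout against wildtype females, and bin 9 of Fbxo32 3.4 ± 0.529 against 2.52 ± 0.449 in males (SD, n = 5). Trim7 had only bin 20 listed, in females, with 5.33 ± 1.94 against 3.58 ± 1.51. These bins were listed for their p, and these 3 held 6 to 37 (Trim7), 18 to 140 (Trim55) and 25 to 100 (Fbxo32) reads per mouse.

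Several other genes lie over the members, and the strand used in counting is not given in the sources used here, so reads of genes on opposite strands cannot be told apart. Over Trim7 these are Gm16170, with 9.3 ± 4.59 in knockouts and 6.49 ± 2.24 in wildtypes among females, and Gm12184, with 6.09 ± 2.23 in knockouts and 5.05 ± 1.92 in wildtypes, both on the opposite strand. BC002189 overlaps Trim55 on the same strand, with 6.37 ± 3.07 in knockouts and 9.16 ± 1.35 in wildtypes among females. All overlapping genes of the 6 members were under 10 normalized counts on average in every group. The authors' deposited gene table, in which each library counts as a sample, also has adjusted p under 0.05 for Trim72 in females (log2 -0.24) and for Trim63 (0.20), Trim55 (-0.17) and Trim72 (-0.15) in males, where 21.7% of genes with an adjusted p passed in females and 23.2% in males.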

How the data were processed

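Left ventricular RNA of 20 mice was sequenced in 2 libraries per mouse. Per the submitters' processing notes, reads were aligned with STAR 2.7.10a to GRCm39. The authors deposited 1 gene table per sex with a signal per library, read counts divided by a size factor, together with their log2 fold changes and p-values from DESeq2 over libraries, and exon tables with read counts per bin and p-values. Size factors ran from 0.326 to 2.343, and 100% of values came out as whole reads within 1e-06 of a read. The second library of ko_f_154 was not used, because no table column was matched to its label, and 1 column that no label names was left out. Labels that differ only in a final 1 or 2 were taken as libraries of the same mouse and averaged.

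Changes were tested with limma 3.58.1 (trend) on log2(normalized count + 1) of genes with a mean of at least 10, two-sided, with Benjamini-Hochberg adjustment over all genes tested, in each sex, and in 1 fit of the 4 groups for the difference between the sexes. Alternatives were pseudocounts of 0.5 and 5, no filter or a mean of 50, edgeR 4.0.16 and DESeq2 1.42.0 on recovered reads, TMM scaling, scaling without mitochondrial genes, either library alone, each mouse left out, the mice with Myl7 of at least 500 left out, and the authors' values. The limma fits within each sex were tested on simulated counts with known fold changes. Named were the 6 members, Rbm20, genes of the pathway lists with an adjusted p under 0.05, and the 3 genes most like each member with a mean of at least 50. Of these, 2 genes are not reported here by name, and counts are over the whole lists. Foxo1, Foxo4, Nr3c1 and the marker genes given by name fall outside this rule and were chosen after their values were seen. The members and lists were chosen with earlier results of these data known. The labels do not say that mouse numbers mark litters or days.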

Additional observations from a re-analysis of the deposited data

Results flagged for a closer look

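In 3 of 24 groups of 5 mice (6 members in 4 groups) a mouse stood far from the other 4 by Dixon's criterion. The nominal rate of this criterion is about 1 in 20 for independent groups. These groups share mice, and no rate over all genes is given here. Mouse wt_f_143 had 844 normalized counts of Trim55, and the other wildtype females lay at 628 to 668. The same mouse had 209 normalized counts of Trim7, against 148 to 161 in the others. Without it the log2 change in females was -0.24 for Trim55 (adjusted p = 0.0419) and 0.50 for Trim7 (0.00611). Mouse ko_f_155 had 2059.8 normalized counts of Trim72, against 1328 to 1539.5 in the others, and without it the log2 value was -0.36 (0.00772). This mouse was also the highest of the knockout females for Trim55, Trim63, Fbxo32, Trim7 and Rbm20.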

How the results depend on the processing

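Of 450 values of the 6 genes under the alternatives, the 2 sexes and their difference together, 10 changed sign, 12 lost and 9 gained a call; the causes were not tested. The male fall of Trim7 passed under every alternative run. Each mouse left out in turn gave, for females, 0.37 to 0.50 for Trim7, -0.35 to -0.24 for Trim55, -0.36 to -0.20 for Trim72, -0.074 to 0.044 for Trim63 and -0.046 to 0.19 for Fbxo32 on the log2 scale. For the difference between the sexes it gave -0.85 to -0.71 for Trim7, -0.031 to 0.20 for Fbxo32, -0.0016 to 0.068 for Trim54 and 0 to 14 genes called.

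Trim63 in females was 0.012, 0.040, 0.017 and 0.044 without ko_f_150, ko_f_95, wt_f_140 and wt_f_142, against -0.013 with all mice. Fbxo32 in females was -0.046 without wt_f_144 and -0.041 without the mice with high Myl7. In the difference, Trim54 was -0.0016 and Fbxo32 -0.031 without wt_f_142, and Fbxo32 was -0.019 without wt_m_113 and -0.0022 with library 2. Library 1 alone gave -0.30 for Trim55 in females (adjusted p = 0.0579) and 2 genes for the difference. Library 2 alone gave 868 genes in females against 1379, -0.32 for Trim55 (0.0608), 0.31 for Trim7 and 1 gene for the difference. Without the mice with high Myl7, Trim55 and Trim7 in females were -0.34 and 0.43. DESeq2 on recovered reads gave 49 genes and -0.76 for Trim7 in the difference. The authors' deposited values gave 3604 genes in females and 3986 against 1987 in males, -0.24 for Trim72 in females, and 0.20, -0.17 and -0.15 for Trim63, Trim55 and Trim72 in males. No paired analysis was possible because the groups share no mouse numbers. Trim7 is the least abundant member, and its relative counting error is the largest.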
